A study of Mus musculus with 24 samples.

Results

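The hepatic carboxylesterase genes described here are Ces1c, Ces1d, Ces1e, Ces1f, Ces1g, Ces2a, Ces2c, Ces2e, Ces3a and Ces3b. They were chosen by symbol from a table of liver counts, 10 of 13686 genes, and all 10 passed the filter on low counts. The livers came from male wild-type C57BL/6 mice, a common inbred laboratory strain, that ate chow or a diet enriched in an oil for 6 weeks: cottonseed oil in CSO, olive oil in OO and safflower oil in SFO. The labels give no age and no composition for any of these diets, so the chow diet may differ from the oil diets in more than its oil. Messenger RNA was counted by QuantSeq, a 3′ tag method that yields about 1 tag per transcript whatever its length. The table holds 6 libraries each for chow, CSO and OO and 5 for SFO, because the submitters left out SFO 4 as an outlier with possible contamination. The labels do not say whether replicates of a diet are separate mice, and the spread that p-values rest on may therefore be technical.

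Carboxylesterases are serine hydrolases of the endoplasmic reticulum and, for some, of plasma. They cleave ester and amide bonds in drugs, pesticides and lipids, and the liver expresses them strongly. Several mouse members hydrolyse triacylglycerol, diacylglycerol or monoacylglycerol in the hepatocyte, and some are induced through the nuclear receptors CAR and PXR, which sense foreign compounds.

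Ces2a, a diacylglycerol and monoacylglycerol lipase, fell in all 3 oil diets, to between 36.8% and 43.2% of its chow level. Ces1d, the triacylglycerol hydrolase that mobilises stored fat for lipoprotein assembly, and Ces1f, a related hydrolase, fell in SFO livers. Ces1d was also higher in CSO than in OO and SFO livers. A gene was called where its adjusted p was under 0.05, and the other 7 genes were called in none of the 6 comparisons of diets. In CSO and in OO against chow 1 of the 10 was called lower, where 0.2% and 0.919% of all tested genes were. In SFO 3 of 10 were called lower, against 0.342% of tested genes. Between oil diets 1 member was called higher in CSO than in OO (0.251% of tested genes), 2 were called higher in CSO than in SFO (0.284%) and 1 was called lower in SFO than in OO (0.794%).

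Library totals ran from 5428649 to 14930305 counts. Transcript levels are given as normalised CPM, a count relative to its library's total after TMM scaling, and fold changes are log2 values ± SE from edgeR's robust quasi-likelihood F test. An adjusted p is Benjamini-Hochberg over all 11971 tested genes of a comparison. Skeletal muscle transcripts were present in some livers: Acta1, the skeletal muscle actin, passed 100 CPM in chow 3, chow 4, chow 5 and CSO 1, and the sum of 10 muscle markers ran from 6.09 to 1725 CPM in chow and from 0.534 to 8.88 CPM in OO. The sum of 6 hepatocyte markers (Alb, Ttr, Apoa2, Serpina1c, Tat and Cps1) ranged from 90461 to 158888 CPM over all libraries. In whole liver, fewer cells of a type and less RNA per cell cannot be told apart.

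The 10 genes lie on chromosome 8 in a pair of clusters, by the gene order of GRCm38.p6 in RefSeq. The first holds Ces1c to Ces1g and the second holds Ces2a, Ces2c, Ces2e, Ces3a and Ces3b. Genes this alike can share tags, and the strand setting of the counting is not stated in these sources. In the last 300 bases of the longest coding GENCODE M21 transcript, windows of 50 bases that also occur in another gene made up 30.7% of the windows of Ces1c (shared with Ces1b), 14.3% for Ces3a (shared with Ces3b), 11.6% for Ces2c (shared with Ces2d-ps and Ces2e) and 1.2% for Ces2a (shared with Ces2e and Gm7208). For Ces1d, Ces1e, Ces1f, Ces1g, Ces2e and Ces3b the share was 0%. Counts of Ces1c, Ces3a and Ces2c are therefore less certain. A shared tag could also be given to the partner gene, so Ces2e and Ces3b are not free of this limit.

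On the tag scale, Ces3a and Ces1c were the most abundant, at means of 2070 and 1815 CPM over the 23 libraries and ranks of 48 and 57 in the table. Their ranges overlapped, and the lowest Ces1c value, 1346 CPM, lay above the highest value of any other member, 1047 CPM of Ces3b in SFO 1. Ces3b (646 CPM), Ces1d (570 CPM), Ces1f (498 CPM), Ces2a (321 CPM), Ces2e (217 CPM), Ces1e (186 CPM) and Ces1g (159 CPM) followed, and each of these ranges overlapped with the next. Ces2c was far lower at 12.9 CPM, and its highest value, 24.0 CPM, lay below the lowest of Ces1g, 70.1 CPM. Together the members held 0.683% ± 0.033 of chow counts, 0.660% ± 0.051 of CSO, 0.651% ± 0.056 of OO (SD, n = 6 each) and 0.580% ± 0.075 of SFO counts (SD, n = 5).

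**Figure D1:**
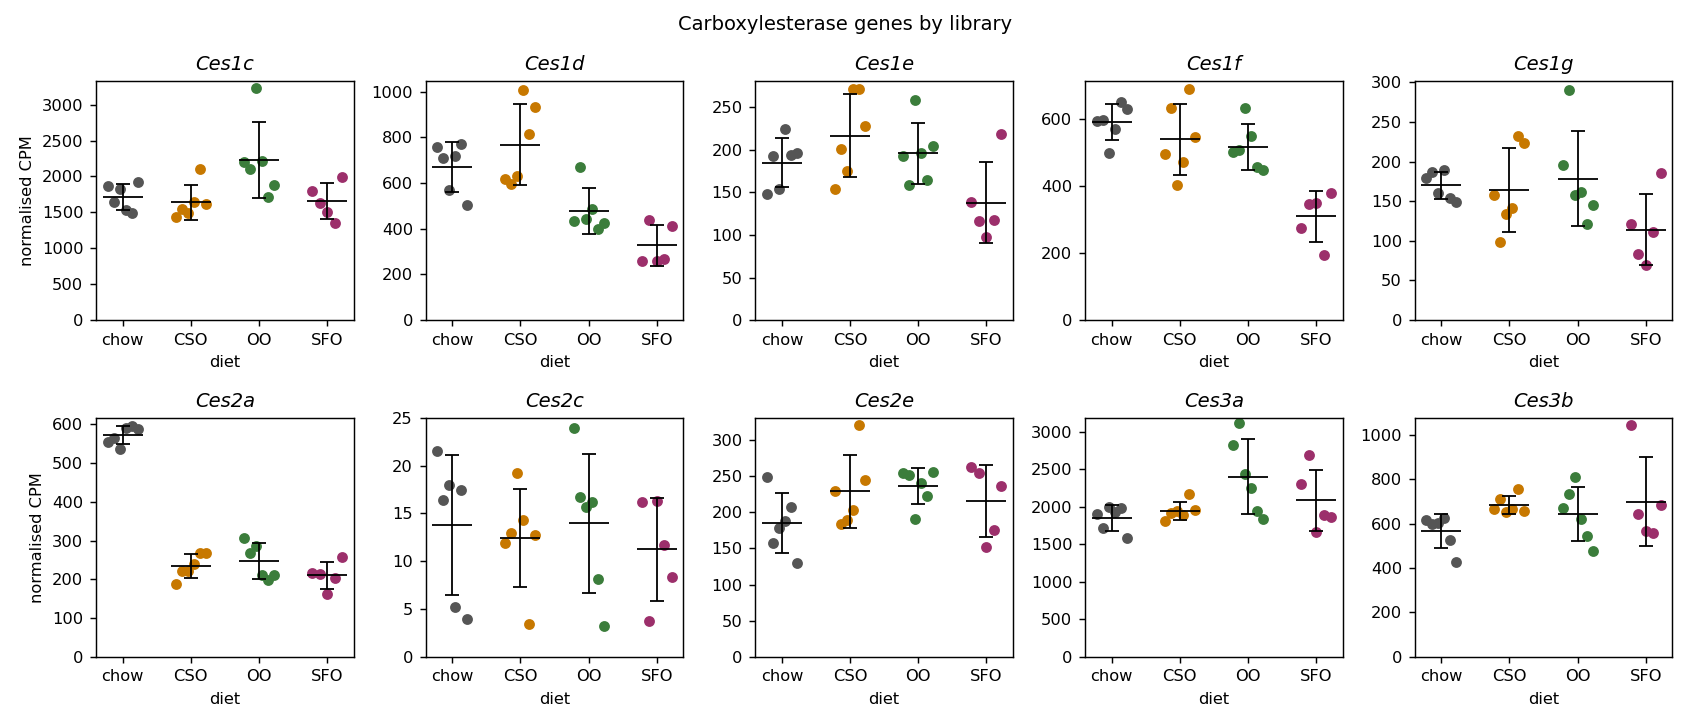
Normalised CPM (vertical axes, from 0) of each of the 10 carboxylesterase genes by diet (horizontal axes), with 1 point per library and bars for the mean ± SD. In the Ces2a panel the 6 chow points, at 537 to 595 CPM, stand above all 17 oil points, whose highest is 307 CPM.

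Ces2a was at 537 CPM in the lowest, 576 CPM in the median and 595 CPM in the highest chow library. It was at 187, 231 and 269 CPM in CSO and at 198, 240.4 and 307 CPM in OO, in the same order. The SFO libraries 1, 2, 3, 5 and 6 held 218, 212, 161, 204 and 258 CPM. Each of the 17 oil libraries was thus below every chow library, while the oil diets overlapped with each other. Of all tested genes, 0.576% in CSO, 0.777% in OO and 0.911% in SFO lay wholly below chow. Against chow, Ces2a fell by 1.29 ± 0.14 in CSO (adjusted p = 6.78e-08), by 1.21 ± 0.14 in OO (adjusted p = 2.83e-07) and by 1.44 ± 0.15 in SFO (adjusted p = 9.19e-09), all log2. These changes leave 41.0%, 43.2% and 36.8% of the chow level. The 3 comparisons share the chow libraries. Between oil diets the Ces2a differences were -0.07 for CSO against OO (95% interval -0.36 to 0.21), 0.15 for CSO against SFO (-0.15 to 0.46) and -0.23 for SFO against OO (-0.53 to 0.07), none of them called; the first was 0.09 when scaled by library totals. Without the 4 libraries over 100 CPM of Acta1 the fall was -1.23 in CSO, -1.21 in OO and -1.43 in SFO, called in each (adjusted p = 0.000389, 0.000258 and 1.20e-05).

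Ces2e, a lipase and pyrethroid hydrolase of the same cluster that is best known from intestine, is a close relative of Ces2a. It ranged from 130.2 to 250 CPM in chow (median 184), from 184 to 322 CPM in CSO (median 217) and from 191 to 256 CPM in OO (median 246). The SFO libraries held 263, 255, 152, 175 and 236 CPM, and all 4 diets overlapped. The Ces2e difference from chow was 0.31 ± 0.17 in CSO, 0.35 ± 0.17 in OO and 0.22 ± 0.18 in SFO, with 95% intervals of -0.04 to 0.65, 0.01 to 0.69 and -0.14 to 0.58, none called. The ratio of Ces2a to Ces2e within a library needs no scaling between libraries: it was 3.22 ± 0.77 in chow, against 1.05 ± 0.18 in CSO, 1.06 ± 0.25 in OO (SD, n = 6 each) and 0.996 ± 0.156 in SFO (SD, n = 5). The lowest chow ratio was 2.23 and the highest oil ratio 1.49. This ratio was chosen with the values known and was not tested. Of 7 enterocyte markers listed, 2 were in the table: Fabp2, at a mean of 24.8 CPM in chow, 72.5 in CSO, 57.4 in OO and 39.2 in SFO, and Lct, which had counts in 1 OO library. Fabp2, the only 1 of these markers to pass the filter, was called higher in CSO against chow (log2 1.55) and in no other comparison. The part of these markers in the Ces2e values was not tested.

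Ces2c, a triacylglycerol and diacylglycerol hydrolase that lies between Ces2a and Ces2e, had 25 to 238 counts per library and varied widely within each diet. Its chow libraries ran from 3.94 to 21.6 CPM (median 16.9), CSO from 3.48 to 19.2 (median 12.9) and OO from 3.25 to 24.0 (median 15.9). The 5 SFO libraries held 16.2, 3.71, 16.3, 11.7 and 8.34 CPM, within the range of the other diets. Differences from chow were -0.14 ± 0.56, 0.03 ± 0.56 and -0.28 ± 0.59, and their 95% intervals reached from -1.26 to 0.98, from -1.09 to 1.15 and from -1.46 to 0.89. The SFO interval includes a fall as large as that of Ces2a, and the OO value was -0.18 when scaled by library totals.

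The promoters of these 3 neighbours are shown because Ces2a was called and Ces2e was not. RefSeq promoters (250 bases before to 50 after the gene start) were found for 7 of the 10 members; Ces1d, Ces1f and Ces3a had none in the table. The sequences below are from GRCm38.p6, all on the plus strand at chr8:104733753-104734052 (Ces2a), chr8:104846818-104847117 (Ces2c) and chr8:104926010-104926309 (Ces2e). They are written 5′ to 3′, with capitals marking the nuclear receptor half-site AGGTCA.
Ces2a: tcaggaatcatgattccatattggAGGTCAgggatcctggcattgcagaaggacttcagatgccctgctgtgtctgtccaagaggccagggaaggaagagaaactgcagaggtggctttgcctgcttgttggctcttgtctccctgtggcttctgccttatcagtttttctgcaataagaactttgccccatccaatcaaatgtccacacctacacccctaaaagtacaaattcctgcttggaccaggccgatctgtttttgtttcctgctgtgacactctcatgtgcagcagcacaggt
Ces2c: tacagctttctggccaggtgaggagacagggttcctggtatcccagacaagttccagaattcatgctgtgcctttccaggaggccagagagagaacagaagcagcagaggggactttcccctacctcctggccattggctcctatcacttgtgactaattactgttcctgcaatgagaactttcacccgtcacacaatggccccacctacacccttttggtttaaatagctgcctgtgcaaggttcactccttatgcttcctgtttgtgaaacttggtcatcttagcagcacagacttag
Ces2e: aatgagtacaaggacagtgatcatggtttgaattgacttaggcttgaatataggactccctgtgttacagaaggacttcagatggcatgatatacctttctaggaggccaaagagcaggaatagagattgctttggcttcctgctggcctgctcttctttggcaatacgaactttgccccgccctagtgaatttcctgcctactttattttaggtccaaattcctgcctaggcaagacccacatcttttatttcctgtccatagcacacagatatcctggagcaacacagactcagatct
The Ces2a window held AGGTCA once on the plus strand, with its first base 226 bases before the gene start. The Ces2c and Ces2e windows held no AGGTCA, and none of the 3 held AGTTCA, TGACNNNGC (the core of the antioxidant response element) or CAAAGTCCA (a match to HNF4 alpha sites), searched on both strands. Of 32851 promoters in the table, 16.3% held AGGTCA, 14.0% AGTTCA, 12.4% TGACNNNGC and 0.475% CAAAGTCCA, so the Ces2a match is a common one. When aligned in pairs, Ces2a and Ces2c shared 68.7% of 291 aligned bases, Ces2a and Ces2e 69.1% of 265, and Ces2c and Ces2e 65.9% of 264. A match describes the letters in the window and not a bound site.

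Ces1d was at 504, 712 and 771 CPM in the lowest, median and highest chow library, and at 597, 723 and 1007 CPM in CSO. In OO these were 400.1, 439.5 and 672 CPM, and the SFO libraries held 257, 437, 258, 269 and 413 CPM. Every SFO library was below every chow and CSO library, whereas OO overlapped with each of the other diets. Of tested genes, 0.911% lay wholly below chow in SFO. Ces1d fell by 1.04 ± 0.17 in SFO against chow (log2, adjusted p = 0.000109), to 48.7% of the chow level. In OO the difference from chow was -0.49 ± 0.16 (adjusted p = 0.0710) and in CSO 0.19 ± 0.16 (adjusted p = 0.9996), neither called. The OO value was called in 2 of 22 alternatives, without OO 2, the highest OO library (-0.61, adjusted p = 0.0274), and when scaled by library totals (-0.69, adjusted p = 0.0123), and in the other 20 its adjusted p reached 0.426.

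Between oil diets, Ces1d was higher in CSO than in SFO by 1.23 ± 0.17 (log2, adjusted p = 1.10e-05), and all 6 CSO libraries lay above all 5 SFO libraries, as for 1.17% of tested genes. It was higher in CSO than in OO by 0.69 ± 0.16 (adjusted p = 0.0160), with 6 of 6 CSO libraries above the OO mean but overlapping ranges. SFO against OO was at -0.54 ± 0.17 (adjusted p = 0.0850), not called. The CSO against OO call was lost without CSO 4 (0.59, adjusted p = 0.0753) and without CSO 6 (0.62, adjusted p = 0.0646). A clock score, the log2 level of 5 evening genes such as Per2 and Dbp minus that of 4 morning genes such as Clock and Arntl, was 3.92 ± 0.64 in CSO and 1.21 ± 1.54 in OO (SD, n = 6 each), and with this score as a term the Ces1d difference was 0.56 (adjusted p = 0.149). Fat tissue also expresses Ces1d. Of 6 adipocyte markers listed 4 were in the table, and their sum ran from 3.75 to 85.5 CPM in chow, from 40.5 to 215 in CSO, from 2.12 to 97.5 in OO and from 3.64 to 31.3 in SFO. Cfd, which encodes adipsin, and Cidec made up these sums in the oil diets, where Retn and Lep were at 0 in every library. Their part in the Ces1d differences was not tested.

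Ces1f was at 498, 598 and 651 CPM in the lowest, median and highest chow library, at 403, 522 and 690 CPM in CSO and at 449, 506 and 634 CPM in OO. The SFO libraries held 276, 348, 351 and 194 CPM in SFO 1, 2, 3 and 5, and 381 CPM in SFO 6. No SFO library reached the lowest of any other diet, 403 CPM in CSO 3. Of tested genes, 0.911% lay wholly below chow in SFO, 0.576% wholly below OO in SFO, and 1.17% wholly above SFO in CSO. Ces1f fell in SFO by 0.93 ± 0.15 (log2, adjusted p = 0.000149), to 52.4% of chow. It was higher in CSO than in SFO by 0.80 ± 0.15 (adjusted p = 0.00226), and SFO was below OO by -0.74 ± 0.15 (adjusted p = 0.0122). CSO and OO differed from chow by -0.13 ± 0.14 and -0.19 ± 0.14, with 95% intervals of -0.42 to 0.16 and -0.48 to 0.10. The SFO against OO call was lost without SFO 5 (-0.61, adjusted p = 0.0582), with voom (-0.74, adjusted p = 0.0681) and when only these 2 diets were fitted (-0.73, adjusted p = 0.172).

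Both SFO falls were also called without the 4 libraries over 100 CPM of Acta1. Ces1d was then at -0.996 (adjusted p = 0.00927) and Ces1f at -0.97 (adjusted p = 0.00756) in SFO against chow. Ces1d and Ces1f had a Pearson r of 0.71 over the 23 libraries and of 0.30 within diets (log2 CPM, with diet means removed). These correlations are descriptions over libraries that share diet and scaling. The sum of 4 cholangiocyte markers ran from 37.5 to 80.4 CPM in chow and from 48.5 to 110 CPM in SFO, and its part in these falls was not tested.

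**Figure D2:**
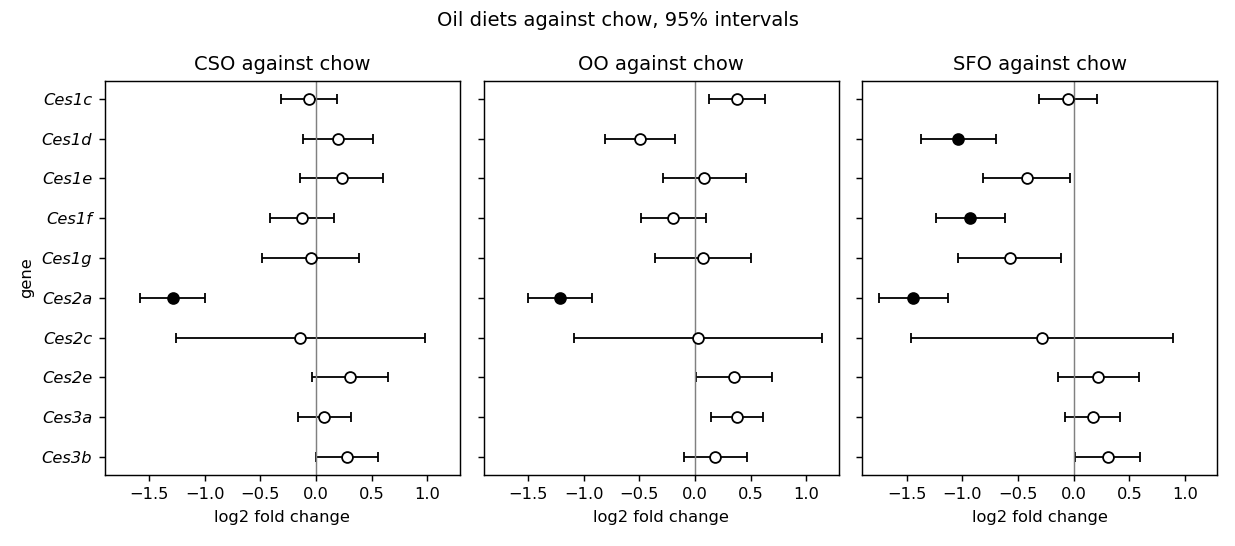
Log2 fold change (horizontal axes) of each carboxylesterase gene (rows) in CSO, OO and SFO against chow, as the estimate with its 95% interval. Filled points were called: Ces2a in all 3 panels, at -1.29, -1.21 and -1.44, and Ces1d and Ces1f in SFO.

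Ces1e and Ces1g lie on either side of Ces1f. Ces1e, known as egasyn, holds beta-glucuronidase in the endoplasmic reticulum, and Ces1g is linked to hepatic triacylglycerol and cholesterol. Ces1e ran from 148 to 225 CPM in chow, from 154 to 272 in CSO and from 158 to 258 in OO, and the SFO libraries held 139, 116, 97.9, 118 and 219 CPM. Ces1g ran from 150 to 190.0 CPM in chow, from 98.5 to 232 in CSO and from 121 to 291 in OO, and SFO held 121, 82.9, 70.1, 111 and 185 CPM. In both genes 4 of the 5 SFO libraries were below every chow library, and SFO 6 was within the chow range. The SFO difference from chow was -0.42 ± 0.19 for Ces1e (adjusted p = 0.570) and -0.58 ± 0.23 for Ces1g (adjusted p = 0.414), neither called. In CSO they were at 0.23 ± 0.18 and -0.05 ± 0.22, and in OO at 0.08 ± 0.18 and 0.07 ± 0.22, which turned to -0.12 and -0.13 when scaled by library totals.

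Ces1c, the esterase that mouse liver secretes into plasma, was at medians of 1735 CPM in chow, 1580.3 in CSO and 2153 in OO, and at 1796, 1627, 1505, 1346 and 1998 CPM in the SFO libraries. Its highest value was 3235 CPM in OO 3, and the diets overlapped. The OO difference from chow was 0.38 ± 0.12 (adjusted p = 0.0776) and that of CSO from OO -0.44 ± 0.12 (adjusted p = 0.0554). That of SFO from OO was -0.43 ± 0.13 (adjusted p = 0.0840). Ces1c in OO against chow was called in 1 of 22 alternatives, without OO 5, the lowest OO library (0.44, adjusted p = 0.0360), and was 0.24 without OO 3, the highest (adjusted p = 0.287), and 0.18 when scaled by library totals (adjusted p = 0.447). The CSO against OO difference was called in 3 of 22 alternatives, among them without OO 5 (-0.51, adjusted p = 0.0216), and ranged down in size to -0.27 over the alternatives (highest adjusted p = 0.231). SFO against OO was called in 2 of 21, without OO 5 (-0.49, adjusted p = 0.0327) and without SFO 6 (-0.51, adjusted p = 0.0493), and ranged to -0.28 (highest adjusted p = 0.424). In CSO and SFO the differences from chow were -0.06 ± 0.12 and -0.05 ± 0.13, with 95% intervals of -0.31 to 0.18 and -0.31 to 0.21.

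Ces3a and Ces3b are neighbouring liver carboxylesterases. Ces3a ran from 1578 to 1993 CPM in chow (median 1919), from 1812 to 2171 in CSO (median 1926) and from 1834 to 3109 in OO (median 2346), and SFO held 2296, 2696, 1668, 1895 and 1869 CPM. Its OO difference from chow was 0.38 ± 0.12 (adjusted p = 0.0657), called in 2 of 22 alternatives: without OO 5 (0.43, adjusted p = 0.0341) and without OO 6 (0.45, adjusted p = 0.0294). It was not called in the other 20 and was 0.18 when scaled by library totals (adjusted p = 0.464). In CSO and SFO it was at 0.07 ± 0.12 and 0.17 ± 0.12.

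Ces3b ran from 428 to 626 CPM in chow (median 600.2), from 654 to 758 in CSO (median 666) and from 476 to 809 in OO (median 648), and SFO held 1047, 642, 566, 560.1 and 683 CPM. The CSO range lay wholly above the chow range, yet the difference of 0.28 ± 0.14 was not called (adjusted p = 0.955). In CSO against chow, 0.86% of tested genes had a CSO range wholly above the chow range. The OO and SFO differences were 0.18 ± 0.14 and 0.31 ± 0.15, with overlapping ranges, and the OO value was -0.02 when scaled by library totals.

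No member was called higher than chow by edgeR, DESeq2 or voom, where edgeR called 0.209%, 1.72% and 0.493% of tested genes higher in CSO, OO and SFO. At an unadjusted edgeR p under 0.05 Ces1c, Ces2e and Ces3a were higher in OO and Ces3b in SFO. At the same level, and likewise not called, Ces1d was lower in OO and Ces1e and Ces1g were lower in SFO. The median fold change of the members was 0.01, 0.08 and -0.35 in CSO, OO and SFO against chow, and that of all tested genes -0.02, 0.07 and 0.01. In the authors' deposited table the same members passed an adjusted p under 0.05: Ces2a in CSO, OO and SFO (5.05e-18, 1.44e-15 and 9.83e-20), and Ces1d and Ces1f in SFO (1.65e-05 and 9.10e-06).

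**Figure D3:**
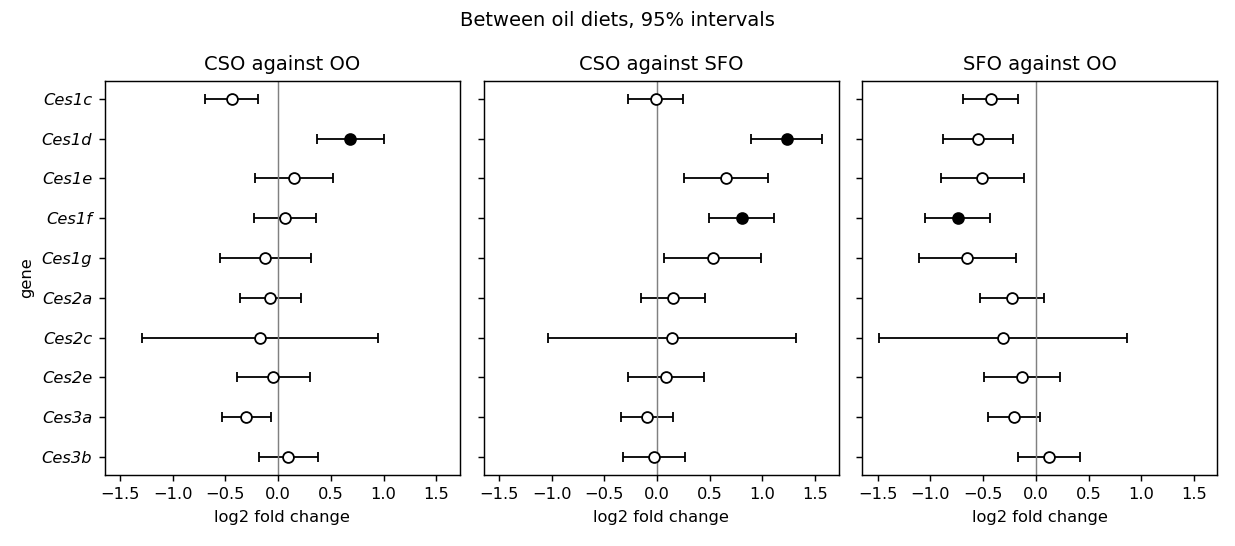
Log2 fold change (horizontal axes) of each carboxylesterase gene (rows) between the oil diets, as the estimate with its 95% interval, with called differences filled. Ces1d is filled in CSO against OO (0.69) and in CSO against SFO (1.23), and Ces1f in CSO against SFO (0.80) and in SFO against OO (-0.74).

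The shares of single members in the summed member CPM differed between diets. Ces2a supplied 8.79% ± 0.56 of the summed member CPM in chow, 3.64% ± 0.26 in CSO, 3.46% ± 0.33 in OO (SD, n = 6 each) and 3.67% ± 0.45 in SFO (SD, n = 5). Ces1d supplied 10.3% ± 1.4 in chow, 11.9% ± 2.2 in CSO, 6.72% ± 1.09 in OO and 5.65% ± 1.13 in SFO. Ces3a supplied 28.4% ± 1.9 in chow, 30.4% ± 1.8 in CSO, 33.6% ± 3.6 in OO and 36.2% ± 4.6 in SFO. Ces1c supplied 26.3% ± 3.2, 25.4% ± 1.1, 31.1% ± 4.1 and 28.8% ± 2.7, in the same order. The sum itself was 6516 ± 251 CPM in chow, 6437 ± 692 in CSO, 7135 ± 1131 in OO and 5766 ± 825 in SFO, with overlapping ranges. SFO 3 and SFO 5 had the lowest sums of all libraries, at 4848 and 4883 CPM.

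Of 12 further genes of the family that were listed, 4 were in the table and none was called by edgeR against chow. At an unadjusted p under 0.05 there were 3 in CSO, 0 in OO and 2 in SFO, and voom called Ces4a in CSO and DESeq2 Ces2b in SFO. Ces2b had 1 count in all 6 chow libraries, 169 in CSO, 8 in OO and 180 in SFO. By library it was at 0.293, 4.93, 2.43, 9.36, 0 and 0 CPM in CSO and at 12.0, 1.20, 0.911, 3.59 and 0.758 CPM in SFO. All SFO libraries were above the chow libraries, as for 0.677% of tested genes, while 2 CSO libraries were at 0. Ces2b passed the filter on low counts only through CSO and SFO libraries, as its highest value was 0.156 CPM in chow and 0.355 CPM in OO. The filter thus came close to fixing a separation from chow, and neither that share nor the ratios below are separate support. The ratio of summed Ces2b counts to chow, per TMM-scaled total of tested genes, was 159 in CSO (95% counting interval 28.2 to 6318), 9.78 in OO (1.31 to 434) and 256 in SFO (45.4 to 10183). Each is over that 1 chow count, with intervals that cover counting error only. The edgeR adjusted p was 0.117 in CSO and 0.0608 in SFO, and the authors' deposited table has 0.00406 for SFO.

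Ces4a, at the far end of the second cluster, was at 0.256 to 7.31 CPM in chow and at 7.68 to 17.2 CPM in CSO. The ranges did not overlap, and 0.86% of tested genes likewise lay wholly above chow in CSO. The difference was 1.93 ± 0.93 with an edgeR adjusted p of 0.921. OO held 0 to 21.4 CPM and SFO 1.56 to 6.57 CPM. Ces1b was at means of 77.9 ± 26.0 CPM in chow, 45.4 ± 19.5 in CSO, 71.0 ± 65.9 in OO and 42.0 ± 9.2 in SFO, and shares 3′ sequence with Ces1c. Ces2g was at means of 38.3, 37.5, 30.0 and 40.6 CPM, in the same order.

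**Figure D4:**
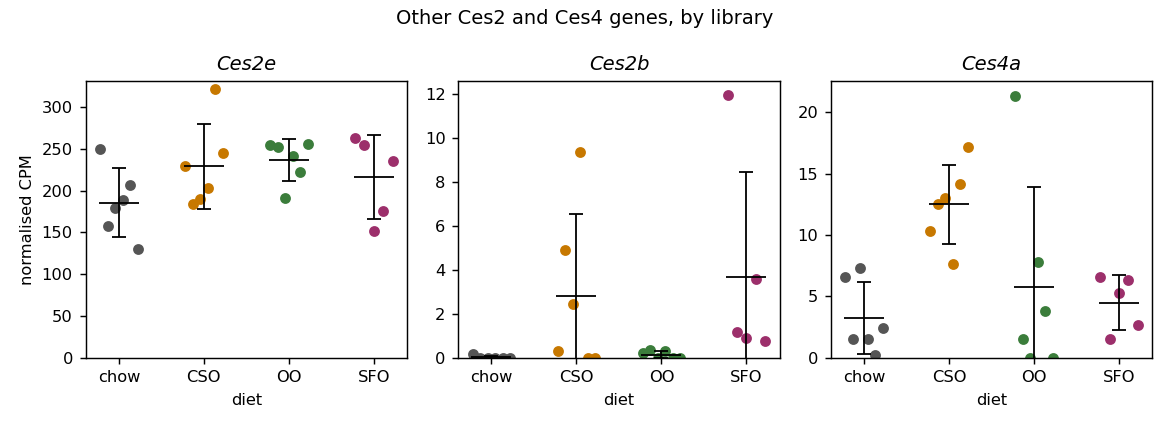
Normalised CPM (vertical axes, from 0) of Ces2e, Ces2b and Ces4a by diet, with 1 point per library and bars for the mean ± SD, whose lower ends are hidden where they pass below 0. Ces2b points are at 0 or near it in chow and OO and reach 9.36 CPM in CSO and 12.0 CPM in SFO; Ces4a is at 7.68 CPM or more in every CSO library.

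The genes whose levels were most like those of Ces2a were found among 5686 tested genes whose mean log2 CPM reached 4. Over 23 libraries they were Cyp3a11, a main drug-metabolising cytochrome P450 (Pearson r 0.97, Spearman rho 0.87), Gstm1, a glutathione transferase (0.93 and 0.78), and Csad, an enzyme of taurine synthesis (0.89 and 0.71). Chow and oil libraries form separate clusters here, so these values mainly restate the diet difference. Within diets, r was 0.75 for Cyp3a11, 0.28 for Gstm1 and 0.21 for Csad. SFO 3, the library lowest in Ces2a (161 CPM), was also lowest in Cyp3a11 (243 CPM).

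**Figure D5:**
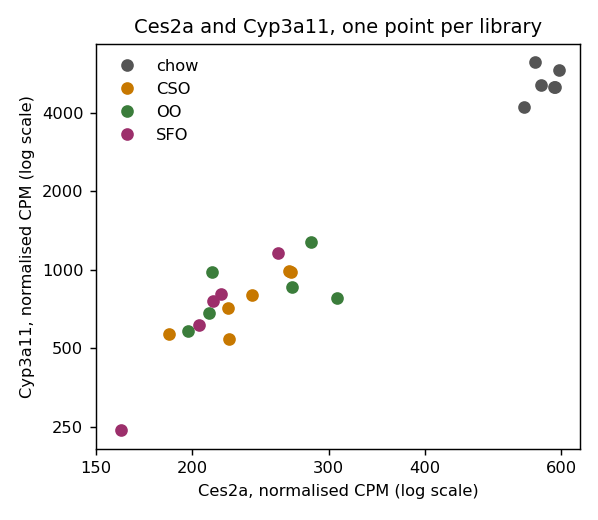
Ces2a (horizontal, log scale) against Cyp3a11 (vertical, log scale), both in normalised CPM, with 1 point per library coloured by diet. The 6 chow libraries sit apart at the top right and the 17 oil libraries, of all 3 oils mixed, at the lower left, with SFO 3 lowest in both genes.

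For Ces1d the most alike were Retsat, a retinol saturase (r 0.87, rho 0.92, within diets 0.54), Acaa1b, a peroxisomal thiolase (0.84, 0.78 and 0.63), and Abcc3, a bile acid and conjugate exporter (0.84, 0.80 and 0.63). These genes were picked because they follow the same libraries, so like calls are no separate evidence. Retsat had the same 3 calls as Ces1d and was also lower in OO than in chow: -0.998 ± 0.156 in SFO against chow (adjusted p = 6.12e-05), 0.79 ± 0.15 in CSO against OO (adjusted p = 0.00121) and 1.06 ± 0.16 in CSO against SFO (adjusted p = 4.05e-05). Abcc3 and Acaa1b were called in SFO against chow and in CSO against SFO, as Ces1d was, but not in CSO against OO, and Acaa1b was also lower in SFO than in OO. For Ces1f they were Gsta4, a glutathione transferase for lipid aldehydes (0.86, 0.73 and 0.73), Cyp2a5, a cytochrome P450 of coumarin and nicotine metabolism (0.83, 0.70 and 0.74) and Ehhadh, a peroxisomal beta-oxidation enzyme (0.82, 0.76 and 0.46). Ehhadh was called in the same 3 comparisons as Ces1f, at -0.91 ± 0.17 in SFO against chow, 0.89 ± 0.17 in CSO against SFO and -0.86 ± 0.17 in SFO against OO (adjusted p = 0.00109, 0.00226 and 0.00830). Gsta4 was called in SFO against chow alone of the 6 comparisons, and Cyp2a5 in none. All correlations share scaling and diet means and carry no test.

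Genes known to be targets of CAR, PXR or NRF2, the regulator of the antioxidant response, were read as a list of 35, of which 32 were tested. In CSO 6 of these fell and 1 rose, in OO 7 fell and 1 rose, and in SFO 11 fell. Over all tested genes 0.2%, 0.919% and 0.342% were called lower in CSO, OO and SFO, and 0.209%, 1.72% and 0.493% higher. The 2 listed genes that rose, named after their values were seen, were Por, the electron donor of cytochromes P450, in CSO and Sult1d1, a sulfotransferase, in OO. The list median was -0.47, -0.40 and -0.79, beside -0.02, 0.07 and 0.01 for all tested genes. Gstm1 fell by 1.40 ± 0.12, 1.09 ± 0.12 and 1.60 ± 0.13 in CSO, OO and SFO, and Ephx1, the microsomal epoxide hydrolase, by 0.96 ± 0.17, 1.25 ± 0.17 and 1.52 ± 0.18. Cyp2c29, a cytochrome P450, fell by 1.32 ± 0.15, 0.72 ± 0.15 and 1.63 ± 0.16. Without the libraries over 100 CPM of Acta1 the counts of falls were 4, 3 and 7, beside 9, 8 and 17 over all tested genes. In that set, which has fewer chow libraries, calls over all genes went from 49, 316 and 100 to 14, 26 and 34. Neither Por nor Sult1d1 was then called, nor Ephx1 in CSO or Cyp2c29 in OO. With voom the counts of falls were 13, 7 and 14, beside 95, 35 and 57 over all tested genes. With DESeq2 they were 6, 8 and 12, beside 45, 327 and 86. Ces2a itself was not on this list, but Cyp3a11 and Gstm1, picked above as most like it, were. The list was chosen with earlier results of these data known, so its counts beside all tested genes are a description.

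The receptors themselves were read as a list of 14 (among them Nr1i3 for CAR, Nr1i2 for PXR, Ppara and Hnf4a), and none was called by edgeR, DESeq2 or voom against chow. At an unadjusted p under 0.05 there were 3, 3 and 1 in CSO, OO and SFO. Of 23 other ester and lipid hydrolases tested, none was called by edgeR in CSO or SFO against chow (2 and 3 at an unadjusted p under 0.05), and DESeq2 called 1 in CSO, Esd, named after its values were seen, where voom called none. In OO 1 rose and 2 fell by edgeR, where 1.72% of all tested genes rose and 0.919% fell. With voom 1 rose and 0 fell in OO, beside 90 and 35 over all tested genes. With DESeq2 2 rose and 3 fell, beside 359 and 327. Pnpla3, a lipase of lipid droplets, was at 0.118 ± 0.221 CPM in chow and 7.77 ± 11.2 in OO, Lpl at 45.8 ± 34.6 and 5.37 ± 4.35, and Ddhd2 at 43.6 ± 13.6 and 12.7 ± 9.7 (SD, n = 6 each). None of the 3 was called without the libraries over 100 CPM of Acta1, a set that leaves out chow 3, chow 4 and chow 5. Calls over all genes in OO against chow then went from 316 to 26. Of 13 genes of very-low-density lipoprotein assembly, Dgat2 and P4hb rose in OO by 0.57 ± 0.14 and 0.42 ± 0.11 (adjusted p = 0.0205 and 0.0332), calls lost with voom and without those libraries. Among all tested genes 1.72% were called higher in OO. None of the 13 was called in CSO or SFO by edgeR, DESeq2 or voom (2 and 1 at an unadjusted p under 0.05).

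Among the members, the closest pairs over 23 libraries were Ces1d with Ces1f (r 0.71), Ces1e with Ces1f (0.65) and Ces1d with Ces1e (0.62), and within diets Ces1g with Ces2a (0.67), Ces1e with Ces2a (0.66) and Ces3a with Ces3b (0.62). Ces2a and Ces2e were at -0.31 over all libraries and 0.32 within diets, so the sign depended on the diet means. Ces2c was weakly related to the other Ces2 genes (0.02 with Ces2a and -0.14 with Ces2e within diets). These are 45 pairs that share library and scaling, given as a description. Ces3a with Ces3b, and Ces2e with Ces2a and Ces2c, can also share tags, and the part of this in the correlations was not tested.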

How the data were processed

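The authors deposited raw counts per gene for 23 liver libraries and, for each oil diet, a table of its comparison with chow, with log2 fold changes and their log2 standard errors, a score (the Wald statistic) and p-values. Per the submitters' processing notes, Trimmomatic, STAR 2.7.1a, HTSeq 0.9.1, DESeq2 and DESeq were used with mm39. The sources do not state the strand setting or annotation. Deposited fold changes, given as chow over oil, were reversed in sign. The labels name 24 samples; SFO 4 was not analysed here.

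edgeR 4.0.16 was run under R 4.3.3: filterByExpr kept 11971 of 13686 genes (99.9% of counts), libraries were scaled by TMM, one model with a term for diet held every library, and 6 comparisons used the robust quasi-likelihood F test, tested on simulated data first. Log2 CPM for correlations used a prior count of 2. The alternatives were other scalings, filters and sets of libraries, a replicate block, a clock score as a term, DESeq2 1.42.0 and limma 3.58.1 voom. Figures used Python 3.11.15 with matplotlib 3.10.9. Library totals were 5428649 to 14930305 counts; Ces2b had 1 count over the 6 chow libraries, and the intervals of Ces2c and Ces4a were wide.

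The members and gene lists were chosen with earlier results of these data known. All members and the measured genes of the family are named; of the other lists, up to 3 called genes with the smallest adjusted p in each comparison with chow; and for each member called against chow, the 3 genes most like it. Promoters and gene order came from RefSeq (GRCm38.p6), another build than that of the counts, and 3′ ends from GENCODE M21.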

Additional observations from a re-analysis of the deposited data

Results flagged for a closer look

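Among the 40 groups of 5 or 6 libraries checked (10 members in 4 diets), 3 held a library that stood apart from the others of its diet. Dixon's criterion at 95% was applied to log2 CPM, and chance flags about 1 group in 20. Ces1c was at 2102 CPM in CSO 5, with the next CSO library at 1648 CPM. Ces1d was at 672 CPM in OO 2, with the next OO library at 485 CPM, and the OO against chow difference of Ces1d was called without that library (-0.61, adjusted p = 0.0274). Ces2c was at 3.48 CPM in CSO 5, with the next CSO library at 11.9 CPM.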

How the results depend on the processing

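Each of the 9 called member differences was recomputed under every alternative: of 192 values, 186 kept the call, 6 lost it and none changed sign. Over 1098 values of differences not called, 13 gained a call and 57 changed sign. The count of members called stayed at 1 in CSO and 3 in SFO against chow. It was 2 in OO against chow with library totals (1 to 3 on leaving out 1 library at a time), 0 in CSO against OO with the clock score (0 to 2), 0 in SFO against OO with voom and with only the diets compared (0 to 4), and 2 to 3 in CSO against SFO. Values near 0 changed sign. With library totals, which moved the median of all genes from 0.07 to -0.12 in OO against chow, the OO against chow values were -0.12 (Ces1e), -0.13 (Ces1g), -0.18 (Ces2c) and -0.020 (Ces3b), and Ces2a in CSO against OO was 0.093. With voom, Ces2c was at 0.16, -0.092 and 0.051 in CSO, OO and SFO against chow and Ces1g at -0.073 in OO. With the clock score, Ces1g and Ces2c were at 0.014 and 0.16 in CSO against chow and Ces1f at -0.063 in CSO against OO. Leaving out 1 library gave -0.17 to 0.062 (Ces1g) and -0.33 to 0.052 (Ces2c) in CSO against chow, -0.12 to 0.16 (Ces1g), -0.19 to 0.24 (Ces2c) and -0.012 to 0.15 (Ces1e) in OO against chow, -0.13 to 0.015 (Ces1c) in SFO against chow and -0.017 to 0.14 (Ces1f) in CSO against OO. The cause was not tested.

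Without SFO 6, Ces1c, Ces1e and Ces1g were called in SFO against OO (-0.51, -0.73 and -0.89) and Ces1e in CSO against SFO (0.88); without OO 6 or CSO 5, Ces1c was called in CSO against OO (-0.50 and -0.53), and without OO 5 in SFO against OO (-0.49). Library totals changed the split of all calls from 206 higher and 110 lower to 62 and 162 in OO against chow, from 30 and 100 to 49 and 34 in CSO against OO, and from 32 and 95 to 33 and 23 in SFO against OO. Counts over all genes ranged from 14 to 215 in CSO, 26 to 686 in OO and 34 to 187 in SFO against chow over the alternatives, beside 49, 316 and 100, and from 40 to 413 in CSO against OO, 27 to 148 in CSO against SFO and 2 to 440 in SFO against OO, beside 130, 59 and 127. With the replicate block the members called were 1, 1 and 3 against chow, as without it. Same-numbered samples had correlations of their deviations from -0.10 to 0.03, and 1 of 23 libraries was closest to its own number. No strong pairing by number was seen, and a weak one need not show in these correlations.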

Other observations

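Markers of other cell types were summed in CPM. Kupffer cell and macrophage markers were at means of 131, 116, 149 and 148 CPM in chow, CSO, OO and SFO, endothelial markers at 152, 115, 152 and 129.7 CPM, and stellate cell markers at 285, 278, 241 and 277 CPM. Cholangiocyte markers were at 52.5, 53.9, 44.0 and 86.3 CPM, exocrine pancreas markers at 9.49, 17.1, 11.1 and 10.1 CPM, and Alas2, the one erythroid marker in the table, at 154, 133, 146 and 130.1 CPM. No listed kidney marker was in the table.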
